A study of Caenorhabditis elegans with 32 samples.

Results

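Sorted oxygen-sensing neurons of Caenorhabditis elegans were compared with whole worms in day 7 adults that had been kept at 7% O2. The comparison holds 8 of the 32 libraries in the series, chosen by their labels as the 4 neuron and the 4 whole-worm libraries of this age and O2 level. The other 24 libraries cover day 1 adults and 21% O2. All animals were hermaphrodites of strain KL123, which carries the npr-1(ad609) allele, a loss of a neuropeptide receptor that keeps the aversion to high O2 strong, and an integrated transgene, iaIs25, with the gcy-37 promoter driving GFP and a copy of unc-119. From larval stage L3 all animals were grown on bacteria that make double-stranded RNA against mex-3, and the day 7 animals of both groups were returned to OP50 bacteria from day 4. Pooled animals were dissociated with enzymes, GFP-positive cells were collected by flow cytometry against gates set on animals without GFP, and the whole-worm sample was an aliquot of each sample's cell suspension, taken before that suspension was sorted. The promoter labels the neurons URX, AQR and PQR and, weakly, the touch neuron AVM and the chemosensory neuron ASI, so the sorted sample is defined by this promoter and not by 1 cell type. No group lacked npr-1(ad609) or mex-3 RNA interference, so neither could be checked against untreated animals.

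URX, AQR and PQR are exposed to the body cavity fluid and respond when O2 rises. In these cells soluble guanylate cyclases bind O2 through a haem group, and the cyclic GMP they make opens the TAX-2/TAX-4 cation channel and lets Ca2+ in. The cyclases GCY-35 and GCY-36 form this sensor in URX, AQR and PQR, while GCY-31 and GCY-33 are known from BAG, a neuron that responds when O2 falls. The neurons release FMRFamide-like peptides and drive animals away from high O2.

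Total counts were 8529094 to 19159055 in the neuron libraries and 5365596 to 8906513 in the whole-worm libraries, and 3 counts in a library correspond to 0.139 to 0.596 CPM (counts of a gene per 1000000 counts of its library, scaled with the TMM factors of edgeR). The noncoding gene F31C3.14, which lies inside a ribosomal RNA gene, held 13% to 35.1% of the counts in neurons and 43.8% to 53.8% in whole worms. Spearman correlations over genes were 0.811 to 0.851 among the neuron libraries, 0.936 to 0.962 among the whole-worm libraries and 0.58 to 0.708 between the groups. Neuron library 2 lay apart from the other 3 on the second principal component, which carried 12.2% of the variance, at -85.1 against 15.4 to 44.2. Of the genes tested, 262 were under 1 CPM in a neuron library and over 20 CPM in another, against 2 such genes among the whole-worm libraries. Of 46726 genes in the file 9627 had enough counts to be tested with the quasi-likelihood F test of edgeR, which is the source of every adjusted p given here (Benjamini-Hochberg over all genes tested). In the sorted neurons 2378 genes (24.7%) were higher than in whole worms and 2036 (21.1%) were lower, at an adjusted p under 0.1 and at least 1.5-fold, so 45.9% were called in either direction. A fold change between 2 bulk samples cannot separate fewer cells of a type from less RNA per cell.

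The soluble guanylate cyclase genes were higher in the sorted neurons, with 5 of 5 tested members called higher and a median log2 fold change of 4.28, beside 24.7% of all genes called higher and a median over all genes of 0.04. The other 2 members of the family, gcy-31 and gcy-34, had too few counts to be tested. The summed level of all 7 was 320.3 to 582 CPM in the neuron libraries and 12.7 to 20.4 CPM in the whole-worm libraries. Most of the sum in every neuron library came from gcy-37. The gene gcy-37 (WBGene00001557, chromosome IV, 2150647 to 2159169 in WBcel235), whose promoter marked the sorted cells, had 317, 447, 342 and 246 CPM in neuron libraries 1 to 4 and 15.6, 7.93, 9.14 and 6.53 CPM in whole-worm libraries 1 to 4. The lowest neuron library lay far above the highest whole-worm library, and the log2 fold change was 5.10 ± 0.33 (SE, n = 4 per group, edgeR adjusted p = 6.63e-07). This gene gives the labels a check, but as the gate rests on its promoter its level is what the sort selected for. The count, median and sum given for the family include it.

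The O2 sensor pair was less even between libraries than gcy-37. For gcy-36 the neuron libraries gave 13.3, 49.6, 33.4 and 19.6 CPM and the whole-worm libraries 2.82, 2.12, 3.98 and 4.36 CPM (log2 fold change 3.13 ± 0.56, SE, n = 4 per group, edgeR adjusted p = 0.00103). For gcy-35 they gave 48.98, 32.02, 8.18 and 7.73 CPM against 0.434, 2.69, 4.97 and 0.681 CPM (log2 fold change 3.49 ± 0.92, SE, n = 4 per group, edgeR adjusted p = 0.0106). In neither gene did the groups overlap, but neuron libraries 3 and 4 held gcy-35 at a level close to the highest whole-worm library. The related cyclase gcy-32 had 34.9, 42.7, 18.8 and 34.6 CPM against 0.325, 2.27, 1.39 and 0.545 CPM (log2 fold change 4.87 ± 0.68, SE, n = 4 per group, edgeR adjusted p = 0.000183). Per length of exon, gcy-37 was at 145 fragments per kilobase of exon (scaled as the CPM) in neurons, while gcy-32, gcy-36 and gcy-35 were at 14.7, 12.3 and 10.2.

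Genes of BAG neurons had low levels in both groups. The summed level of 5 markers was 9.16 to 23.5 CPM in neurons and 1.39 to 5.42 CPM in whole worms. Only 2 of them could be tested, and both were called higher. The BAG cyclase gcy-33 was higher in neurons, with 11.6, 6.11, 12.7 and 8.78 CPM against 0.217, 1.27, 0.199 and 0.272 CPM and no overlap. Its log2 fold change was 4.28 ± 0.89 (SE, n = 4 per group, edgeR adjusted p = 0.0027). The second BAG cyclase, gcy-31, was at 0.112, 0, 1.45 and 0.937 CPM in the neuron libraries and at 0.867, 2.97, 0.199 and 0 CPM in the whole-worm libraries. The receptor cyclase gcy-9, which senses CO2 in BAG, was called higher at a log2 fold change of 2.88 (edgeR adjusted p = 0.0938), but its 2.12, 2.87, 0.145 and 13.8 CPM in neurons overlapped the 0.199 to 1.36 CPM of whole worms. Without neuron library 4 its log2 fold change was 1.42 (edgeR adjusted p = 0.375), and the call was also lost without any single whole-worm library.

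**Figure D1:**
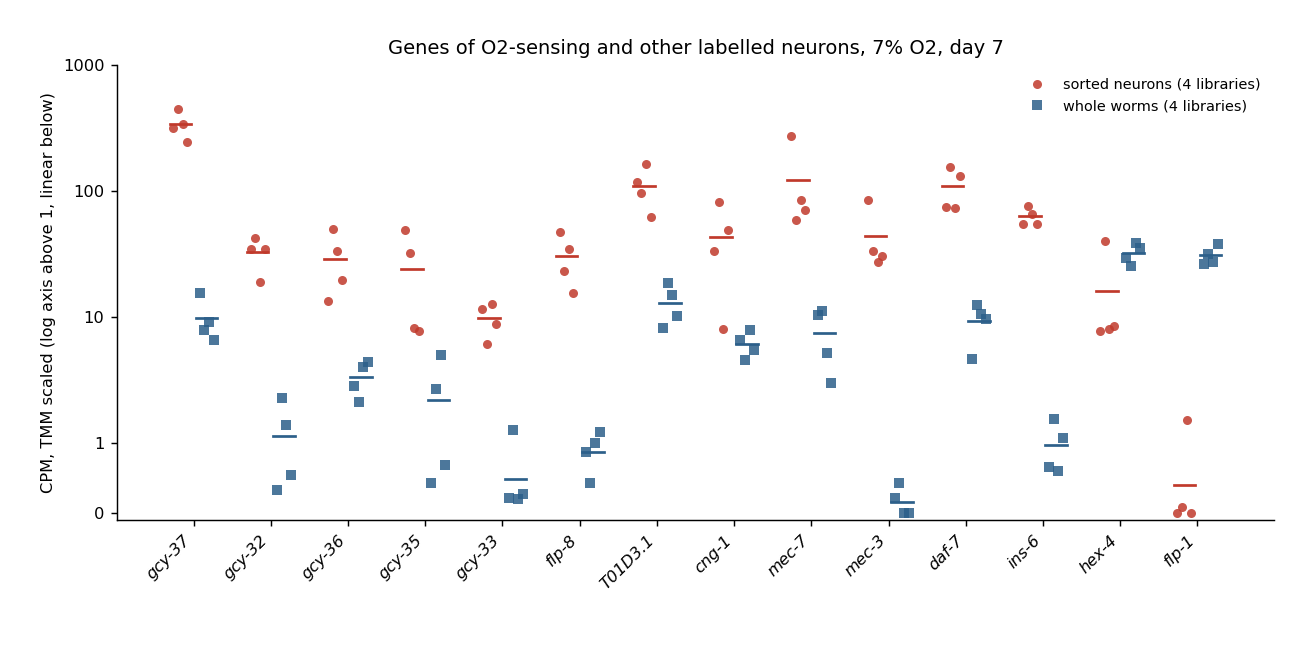
TMM-scaled CPM (symmetric log axis) of 14 genes in each of the 4 neuron and 4 whole-worm libraries of day 7 adults at 7% O2, with a bar at each group mean. In all but hex-4 and flp-1 the 4 neuron libraries lie above the 4 whole-worm libraries, as for gcy-37 with 246 to 447 against 6.53 to 15.6.

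A list of 24 published genes of O2-sensing neurons, taken from the study's literature list, held 15 tested members, of which 11 were higher and none was lower, with a median log2 fold change of 3.16. Besides 4 cyclases, these included flp-8, an FMRFamide-like peptide gene, cng-1, a cyclic nucleotide-gated channel subunit, dyf-7, a gene for dendrite anchoring whose call was lost at 3.44 without whole-worm library 2 (edgeR adjusted p = 0.101), and the unnamed genes T01D3.1, Y102A11A.9 and C43H6.6. For flp-8 the neuron libraries held 47.2, 23.4, 34.96 and 15.6 CPM and the whole-worm libraries 0.425 to 1.23 CPM, a log2 fold change of 5.09 ± 0.61 (SE, n = 4 per group, edgeR adjusted p = 5.36e-05). For cng-1 they held 33.5, 81.4, 8.04 and 48.7 CPM against 4.53 to 7.95 CPM, with neuron library 3 just above the whole-worm range. The gene T01D3.1 was at 117.8, 96.7, 163 and 62.1 CPM against 8.24 to 18.7 CPM, and C43H6.6 was at 15.96, 21.1, 1.38 and 1.52 CPM against at most 0.217 CPM.

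The other 4 tested members of that list did not pass. For hex-4, a hexosaminidase gene, the neuron libraries had 7.81, 40.1, 7.96 and 8.43 CPM and the whole-worm libraries 29.3, 25.5, 38.4 and 35.4 CPM. Neuron library 2 alone lay above the whole-worm range, and without it the log2 fold change of -0.99 (edgeR adjusted p = 0.192) became -1.93 (edgeR adjusted p = 0.00195), which passes. The gene ncx-5, a sodium-calcium exchanger, had a log2 fold change of 2.32 (edgeR adjusted p = 0.163), T07A5.7 one of 2.55 (edgeR adjusted p = 0.123) and Y51H4A.24 one of -0.18 (edgeR adjusted p = 0.917). Without whole-worm library 4 ncx-5 passed at 4.18, and without neuron library 1 T07A5.7 passed at 2.93. The remaining 9 genes, among them glb-5, a globin that tunes the URX response, had too few counts to be tested.

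Of the 20 tested genes of 23 in O2 sensing and cyclic GMP signalling, 15 were higher and none was lower, with a median log2 fold change of 2.24. Several members of this pathway were picked out after their values had been seen. The channel subunit tax-2 had 25.1, 3.33, 54.1 and 13.5 CPM in the neuron libraries and 0.408 to 0.849 CPM in the whole-worm libraries (log2 fold change 5.30 ± 0.89, SE, n = 4 per group, edgeR adjusted p = 0.000701). Its partner tax-4 had 4.80, 3.84, 2.82 and 9.84 CPM against 0 to 2.93 CPM and was not called (log2 fold change 2.45 ± 1.29, SE, n = 4 per group, edgeR adjusted p = 0.156), although it passed at 4.22 without whole-worm library 1. The transcription factor gene ahr-1, needed for URX, AQR and PQR to take on their fate, had 25.8, 9.81, 29.2 and 27.1 CPM against 0 to 3.40 CPM. The hypoxia factor gene hif-1 was even between libraries, at 507, 592, 487 and 458 CPM against 146 to 205 CPM, a log2 fold change of 1.53. The cyclic nucleotide phosphodiesterase gene pde-2 was higher at a log2 fold change of 1.18, whereas the cyclic GMP-dependent kinase gene egl-4 had a log2 fold change of 0.39 (edgeR adjusted p = 0.0648), under the fold threshold. The mutated receptor gene npr-1 was at 4.46, 0, 0.362 and 3.40 CPM in neurons and at no more than 0.425 CPM in whole worms, too few counts for a test.

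Markers of the weakly labelled AVM and ASI neurons were also higher in the sorted sample. All 11 genes on the list of touch receptor neuron markers were higher, with a median log2 fold change of 4.36 and a summed level of 753 to 2575 CPM in neurons against 58.8 to 106 CPM in whole worms. The gene mec-7, a beta-tubulin of the large touch-neuron microtubules, had 274, 59.4, 85.4 and 70.3 CPM against 10.4, 11.18, 5.17 and 3.00 CPM, a log2 fold change of 4.03 ± 0.61 (SE, n = 4 per group, edgeR adjusted p = 0.000327). The homeobox gene mec-3, which sets the touch neuron fate, had 85.4, 33.6, 27.3 and 30.4 CPM against 0.217, 0.425, 0 and 0 CPM. Neuron library 1 was the highest of the neuron libraries for both genes, and also for mec-17, a tubulin acetyltransferase gene with 275 CPM there and 73.4 to 90.3 CPM in the other 3. Without this library all 11 stayed higher, with a median log2 fold change of 3.80. Because mec-3 was near 0 in whole worms, the size of its fitted log2 fold change of 7.91 depends on the prior count. The mechanosensory channel genes mec-4 and mec-10 had log2 fold changes of 3.81 and 4.95, and mec-2, a stomatin gene, one of 1.71.

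All 4 tested ASI markers were higher, and their summed level was 225 to 335 CPM in neurons against 8.13 to 18.7 CPM in whole worms. The gene daf-7, a TGF-beta ligand that ASI secretes, had 75.2, 155, 72.8 and 131 CPM against 4.66 to 12.5 CPM (log2 fold change 3.55 ± 0.40, SE, n = 4 per group, edgeR adjusted p = 4.11e-05). The insulin-like gene ins-6 had 54.5, 76.2, 65.9 and 55.0 CPM against 0.596 to 1.56 CPM, and daf-28, of the same family, had a log2 fold change of 5.29. Over the 4 neuron libraries ins-6 was fairly even, while daf-7 ranged from 72.8 to 155 CPM. What AVM and ASI cells added to any other result was not tested.

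Genes that most neurons use were higher, with a lower median than the markers of single neuron types. Of 22 tested pan-neuronal genes 18 were higher and none was lower, with a median log2 fold change of 2.08 and a summed level of 6190 to 8502 CPM against 1290 to 1793 CPM. The gene egl-3, the convertase that cuts neuropeptide precursors, had 1509, 1530, 1339 and 843 CPM in the neuron libraries and 204 to 331 CPM in the whole-worm libraries (log2 fold change 2.30 ± 0.23, SE, n = 4 per group, edgeR adjusted p = 1.68e-05). Of 17 tested genes for neuropeptide processing and dense-core vesicles, 9 were higher and none was lower (median log2 fold change 1.38), among them egl-21, a carboxypeptidase, at 2.31 and sbt-1, a chaperone of EGL-3, at 2.35. The collapsin response mediator gene unc-33, which organises axonal microtubules, had 537, 825, 631 and 540.2 CPM against 51.8 to 62.8 CPM, and the ankyrin gene unc-44 had a log2 fold change of 2.49. Of 24 tested genes for cilia and intraflagellar transport 22 were higher and none was lower, with a median log2 fold change of 3.18. The dynein gene che-3, whose motor returns cargo from the ciliary tip, had 172, 175, 185 and 141 CPM against 6.94 to 21.8 CPM, a log2 fold change of 3.61.

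Neuropeptide genes that passed the test were higher, with flp-1 as an exception. Of 22 tested FMRFamide-like genes 11 were higher and 1 was lower, of 27 tested neuropeptide-like genes 10 were higher and none was lower, and of 11 tested insulin-like genes 8 were higher and none was lower, with median log2 fold changes of 1.98, 1.06 and 5.29. The neuropeptide-like list shares genes with the list of epidermal antimicrobial peptides, among them nlp-31, which was called higher. The insulin-like gene ins-24 had 131, 109, 150.1 and 94.3 CPM in neurons and 0.795 to 1.98 CPM in whole worms, a 93.9-fold difference (log2 fold change 6.55 ± 0.38, SE, n = 4 per group, edgeR adjusted p = 3.43e-07). The genes ins-5 and ins-30 had log2 fold changes of 6.55 and 6.41. Of the FMRFamide-like genes, flp-20, a touch neuron peptide gene, was at 120.9, 35.2, 66.0 and 39.9 CPM against 0.108 to 1.42 CPM, and flp-7 and flp-14 had log2 fold changes of 4.07 and 3.79. The single one that was lower, flp-1, had 0, 0.0925, 1.52 and 0 CPM in neurons and 26.5, 31.7, 27.2 and 37.8 CPM in whole worms, so the groups were well apart in the other direction (log2 fold change -6.14 ± 1.12, SE, n = 4 per group, edgeR adjusted p = 0.00122). That gene is known from the interneuron AVK.

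Lists of transmitter systems, receptors and channels differed in how many of their genes passed. Of 7 tested genes for transmitter synthesis and transport 1 was higher and 2 were lower (median log2 fold change -0.30). The lower pair was tdc-1, tyrosine decarboxylase, with 67.6, 4.44, 2.32 and 33.03 CPM against 148 to 188 CPM, and tbh-1, tyramine beta-hydroxylase, with a log2 fold change of -1.71. Both are known from the neuron RIC and from the gonad sheath. The vesicular monoamine transporter gene cat-1 was called higher at a log2 fold change of 3.63, with 3.90, 40.2, 0.145 and 8.20 CPM in neurons overlapping 0.545 to 1.98 CPM in whole worms, and without neuron library 2 the value was 2.00 (edgeR adjusted p = 0.192). Leaving out whole-worm library 4 also ended that call, at 3.41. Of 11 tested receptor guanylate cyclases 7 were higher and none was lower (median log2 fold change 2.12), and of 15 tested globins 8 were higher and none was lower (median 1.92). Of 39 tested potassium channel genes 8 were higher and 1 was lower (median 0.73), both smaller shares than the 24.7% and 21.1% of all genes. The globin gene glb-25 showed how unevenly such genes were counted, with 45.8, 1.34, 52.1 and 57.6 CPM in the neuron libraries against 0.544 to 2.78 CPM in the whole-worm libraries, neuron library 2 falling inside the whole-worm range. Only 18 of 1630 chemoreceptor genes could be tested, and 6 of these were higher and none was lower.

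Of 41 tested genes in Ca2+ signalling 20 were higher and 5 were lower, with a median log2 fold change of 0.97. The calmodulin gene cmd-1 had 1224, 1411, 1520 and 1175 CPM in the neuron libraries and 299.8 to 381 CPM in the whole-worm libraries (log2 fold change 2.00 ± 0.14, SE, n = 4 per group, edgeR adjusted p = 1.07e-06). The ryanodine receptor gene unc-68, a Ca2+ release channel of the endoplasmic reticulum that muscle also uses, had a log2 fold change of 1.97. Of the luminal Ca2+-binding proteins of the secretory pathway, the calumenin gene calu-1 had one of 3.195 and the calreticulin gene crt-1 one of 1.31. In all 4 of these genes the groups did not overlap.

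Among genes called higher whose groups did not overlap, those with the smallest p were not genes of O2 sensing. The filamin gene fln-2 (chromosome X, 9397701 to 9427253), coding for a large actin cross-linker, had 5023, 5963, 5039 and 3773 CPM in neurons and 203 to 319 CPM in whole worms, an 18.6-fold difference (log2 fold change 4.22 ± 0.19, SE, n = 4 per group, edgeR adjusted p = 2.3e-07). The kinesin-1 heavy chain gene unc-116 had 1771, 2331, 1863 and 1677 CPM against 168 to 215 CPM, and the axon and cell migration gene unc-53 had 2814, 3119, 2957 and 1972 CPM against 78.7 to 132 CPM. The actin gene act-4 had a log2 fold change of 2.38, an uncertain value because actin genes have near-identical copies. The autophagy adaptor gene sqst-1 and the translation factor gene iff-2 had log2 fold changes of 3.13 and 3.30. Among unnamed genes the pseudogene F07H5.5 had 4590, 4961, 4346 and 3762 CPM against 260.3 to 352 CPM. All of these genes had every neuron library above every whole-worm library because the choice required it. The pattern was found in 21.9% of genes tested.

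**Figure D2:**
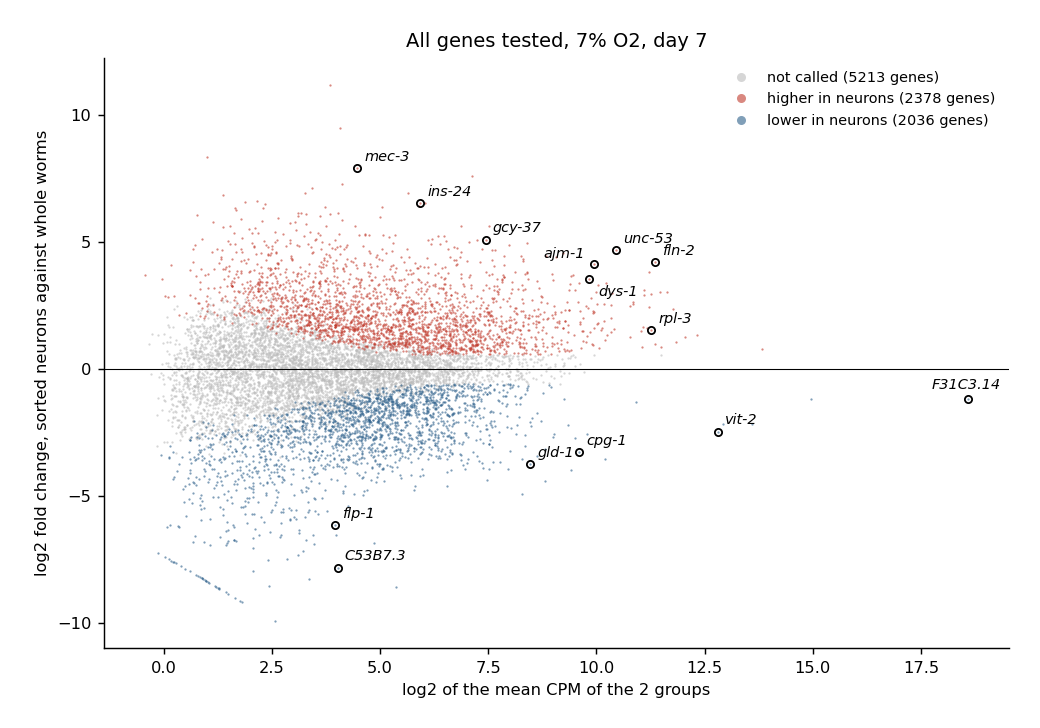
Log2 fold change of sorted neurons over whole worms against the mean level (log2 CPM) of each of the 9627 genes tested, with 2378 genes called higher, 2036 called lower and 5213 not called, and leading genes labelled. Higher genes such as fln-2 (4.22) and gcy-37 (5.10) face lower genes such as cpg-1 (-3.26) and vit-2 (-2.46).

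Epidermal genes were prominent among those higher in the sorted sample. Of 18 tested genes for the precuticle and the furrows, the apical matrix that epidermis lays down before a cuticle, 14 were higher and 1 was lower, with a median log2 fold change of 3.73 and a summed level of 4127 to 5398 CPM in neurons against 657 to 965 CPM in whole worms. The gene noah-1, coding for a zona pellucida domain protein of that matrix, had 1145, 1540, 1431 and 1113 CPM against 64.7 to 166 CPM (log2 fold change 3.72 ± 0.29, SE, n = 4 per group, edgeR adjusted p = 2.41e-06). The molting genes mlt-8 and mlt-11 had log2 fold changes of 4.80 and 3.76, noah-2 one of 3.75 and the patched-related gene ptr-4, needed for molting, one of 4.999. The list's lower member, egg-6, coding for a leucine-rich repeat protein of epithelial surfaces, was at 78.7, 18.5, 32.1 and 37.9 CPM against 312 to 402 CPM.

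Of 13 tested genes on a list for adult epidermis 6 were higher and 1 was lower, with a median log2 fold change of 0.28, and their summed level was 5687 to 8569 CPM against 838 to 1164 CPM. Most of the sum came from junction and attachment genes. The apical junction gene ajm-1 had 2370, 1975, 1536 and 1555 CPM in neurons and 83.9 to 135 CPM in whole worms, a log2 fold change of 4.16 ± 0.21 (SE, n = 4 per group, edgeR adjusted p = 3.09e-07). The spectraplakin gene vab-10, which links the cytoskeleton to epidermal attachments, had 4005, 4769, 3592 and 3078 CPM against 424 to 640.5 CPM, and mup-4, coding for an attachment protein of the apical epidermal surface, had a log2 fold change of 2.31. The epidermal transcription factor gene elt-3, picked out after its values had been seen, had 169, 285, 265 and 175 CPM against 5.44 to 11.04 CPM. The adult cuticle collagen gene col-19 went the other way, with 0.558, 0.139, 0.0724 and 1.87 CPM against 4.67 to 9.22 CPM (log2 fold change -3.36). Of 23 tested collagens 5 were higher and 12 were lower, with a median log2 fold change of -1.87, and those with the smallest p were col-121 at 4.11 and col-181 at -3.21. The part that epidermal RNA had in other results was not tested.

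Ribosomal protein genes were higher almost without exception. Of 78 tested cytosolic ribosomal protein genes 73 were higher and none was lower, with a median log2 fold change of 1.62. The gene rpl-3, of the large subunit, had 3838, 3660, 3481 and 3699 CPM in neurons and 1133 to 1346 CPM in whole worms, a 2.88-fold difference (log2 fold change 1.53 ± 0.11, SE, n = 4 per group, edgeR adjusted p = 1.07e-06). The summed level was 26530 to 32110 CPM against 8207 to 10820 CPM. Ribosomal protein genes of mitochondria did not share this, with 4 of 57 tested members higher and 2 lower and a median log2 fold change of 0.002.

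Subunits of the V-ATPase, the proton pump of lysosomes and synaptic vesicles, were higher in 16 of 20 tested cases and lower in 2, with a median log2 fold change of 1.89. The subunit gene vha-16 had 915, 1296, 1129 and 1067 CPM against 180.3 to 273 CPM, whereas vha-18 had 4.24, 1.34, 5.65 and 7.26 CPM against 17.7 to 34.3 CPM. The catalytic core subunits vha-12 and vha-13 had log2 fold changes of 1.88 and 1.89. Of 16 tested genes encoded in mitochondrial DNA 8 were higher and none was lower (median log2 fold change 0.87). The cytochrome c oxidase subunit genes ctc-1 and ctc-2, with the highest levels per length in neurons, had log2 fold changes of 0.79 and 1.26. Of 33 nuclear genes of the respiratory chain 12 were higher and 4 were lower, and of 32 proteasome genes 1 was higher and 5 were lower (median log2 fold change -0.28).

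Genes of the germ line and the oocyte were lower in the sorted sample. Of 16 germline genes 15 were lower and none was higher, with a median log2 fold change of -2.67, and of 21 oocyte and maternal genes 20 were lower and 1 was higher, with a median of -3.41. The chondroitin proteoglycan gene cpg-1, whose protein forms a layer of the eggshell, had 138, 135, 169 and 149 CPM in neurons and 1369, 1287, 1390 and 1612 CPM in whole worms (log2 fold change -3.26 ± 0.14, SE, n = 4 per group, edgeR adjusted p = 2.25e-07). The 2 groups lay wide apart, with little spread within each. Neuron libraries all below the whole-worm libraries were found in 23.1% of genes tested. This pattern was required of lower genes picked over all genes by their smallest p. Its relative cpg-2 had a log2 fold change of -3.98, the eggshell gene cbd-1 one of -3.52, the fertilization gene egg-1 one of -3.94 and the germline translation repressor gene gld-1 one of -3.73. The RNA helicase gene cgh-1 and the Y-box gene cey-2, which store maternal RNA, had log2 fold changes of -2.19 and -3.01. The single member that was higher was mex-3, the gene targeted by the double-stranded RNA, with 21.1, 52.0, 39.8 and 34.7 CPM in neurons and 3.25, 16.3, 6.36 and 10.7 CPM in whole worms (log2 fold change 2.01 ± 0.53, SE, n = 4 per group, edgeR adjusted p = 0.0106).

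Intestinal genes followed the same direction. All 6 vitellogenin genes, which code for yolk proteins made in the intestine, were lower, with a median log2 fold change of -2.25. The gene vit-2 had 2001, 2186, 2362 and 2284 CPM against 13440, 12660, 13680 and 8777 CPM (log2 fold change -2.46 ± 0.15, SE, n = 4 per group, edgeR adjusted p = 4.65e-07). Values of vit-3 (log2 fold change -2.57) and vit-5 (-2.17) are uncertain, as these genes are near-identical copies. Of 11 tested markers of the intestine 7 were lower and none was higher, among them the aspartyl protease gene asp-1 at -2.58 and the microvillar actin gene act-5 at -2.21. Of 40 tested C-type lectin genes 25 were lower and 7 were higher. The lower one with the smallest p was clec-87 with 38.8 to 93.3 CPM against 598 to 904 CPM, and the higher one clec-78 with 826, 1196, 828 and 674 CPM against 14.8 to 80.5 CPM.

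Muscle genes were mixed. Of 16 genes of body wall muscle 5 were higher and 7 were lower, with a median log2 fold change of -0.21, and the summed level was 4040 to 5916 CPM in neurons and 3700 to 4648 CPM in whole worms. The dystrophin gene dys-1 was higher, with 1817, 1616, 1680 and 1607 CPM against 102.5 to 199 CPM, while the troponin I gene unc-27 was lower, with 53.6, 74.4, 40.1 and 40.2 CPM against 219 to 304 CPM. The myosin heavy chain gene unc-54, picked out after its values had been seen, had a log2 fold change of -0.69 and fell under the fold threshold at -0.53 without neuron library 3 and at -0.55 without whole-worm library 1. The paramyosin gene unc-15, just inside that threshold at -0.58, was not called. Of 8 tested pharyngeal genes 4 were lower and none was higher, among them the myosin gene myo-1 with 5.24, 1.34, 13.1 and 0.468 CPM against 40.7 to 96.0 CPM. Without neuron library 1 the number of lower pharyngeal genes rose to 7 of 9 tested. The coelomocyte gene aman-1 and the glial gene fig-1 were lower at log2 fold changes of -3.72 and -3.48, and daf-6, a gene of the glia that line sensory channels, was higher at 2.68.

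**Figure D3:**
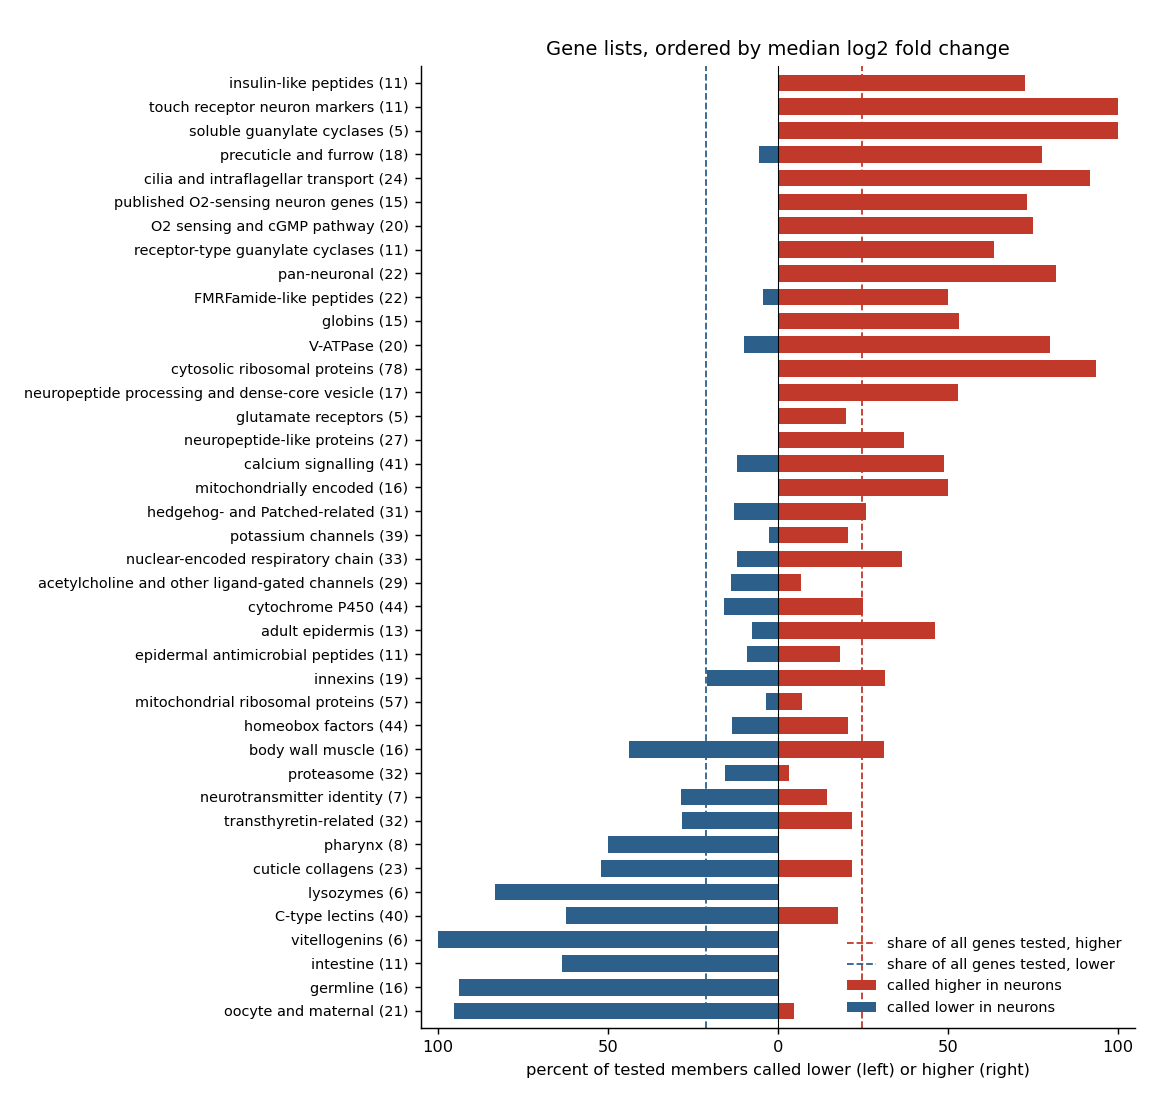
Percent of the tested members of each gene list that were called higher or lower in sorted neurons than in whole worms, with dashed lines at the shares over all genes, 24.7% higher and 21.1% lower. Lists of soluble guanylate cyclases, touch neurons, pan-neuronal genes, cilia, precuticle and ribosomal proteins lie on the higher side. Those of germ line, oocyte, yolk and intestine lie on the lower side. Not every neuronal list had a larger share called higher than all genes. Transmitter genes, potassium channels, ligand-gated channels and glutamate receptors had smaller shares called higher than all genes.

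**Figure D4:**
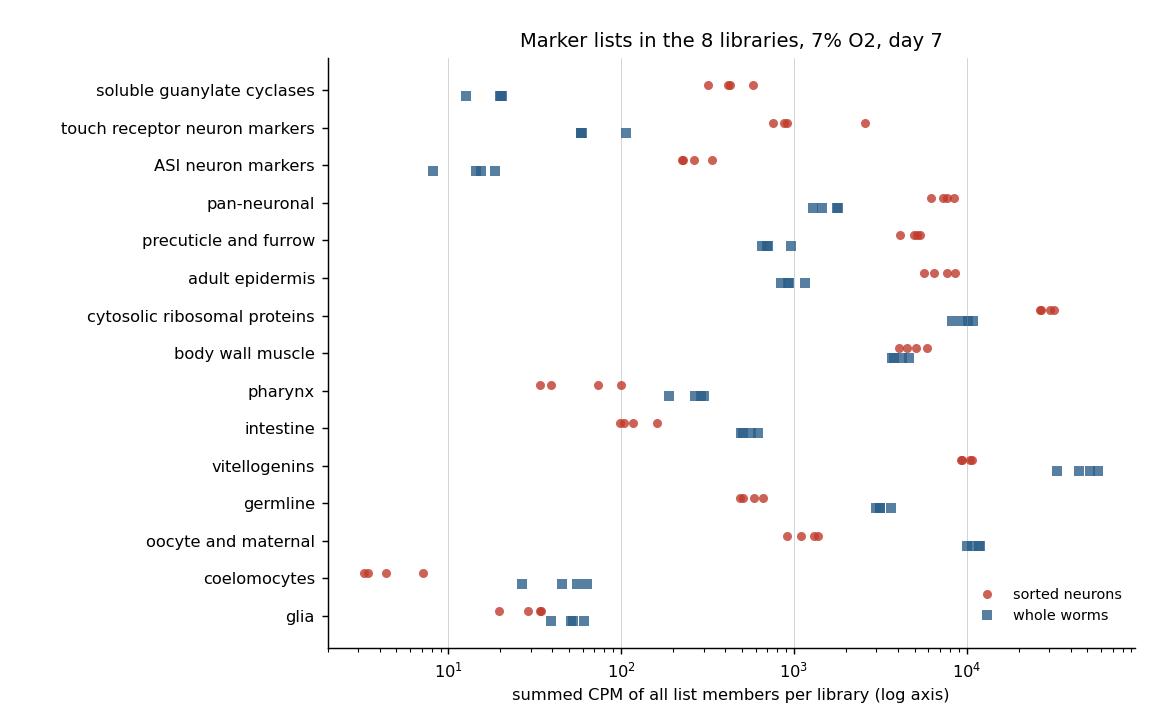
Summed CPM of 15 marker lists in each library of the 2 groups (log axis, each point a library). The touch receptor list ranges from 753 to 2575 in neurons, its highest point being neuron library 1, and the oocyte list from 913 to 1383 in neurons against 10090 to 12000 in whole worms.

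The question whether this contrast differs with the O2 level was asked against the same comparison at 21% O2. A test of the difference between the 2 comparisons, on the 16 day 7 libraries, covered 11082 genes and called 2 (0.018%), 1 in each direction (0.00902%), with 787 genes under an unadjusted p of 0.05 in edgeR and 63 genes called by DESeq2. For gcy-37 the log2 fold change was 5.10 at 7% O2 and 5.61 at 21% O2, and their difference was -0.49 ± 0.55 (SE, n = 4 per group, edgeR adjusted p = 0.922). The median log2 fold changes of the lists stood side by side at 4.28 and 5.08 for soluble guanylate cyclases, at 4.36 and 5.37 for touch markers, at 2.08 and 2.68 for pan-neuronal genes, at 3.73 and 3.58 for precuticle genes and at 1.62 and 1.41 for ribosomal proteins. Each median is over the members tested at that O2 level, which are not always the same genes. No gene of these 5 lists was called in the difference, which does not show that the contrasts are alike.

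The 2 genes called were a pair with neuron libraries near 0 at a single O2 level. The unnamed gene C53B7.3 (chromosome X, 6844755 to 6845975) had 0, 0.185, 0 and 0.351 CPM in neurons and 27.9 to 40.2 CPM in whole worms at 7% O2, and 2.09, 21.1, 5.91 and 8.66 CPM against 13.8 to 26.3 CPM at 21% O2. The difference in log2 fold change was -6.59 ± 1.08 (SE, n = 4 per group, edgeR adjusted p = 0.076). The cytochrome P450 gene cyp-31A5 (chromosome IV, 13401289 to 13403842) went the opposite way, with 6.47, 0.555, 3.47 and 13.8 CPM against 15.4 to 20.3 CPM at 7% O2 and 0, 0, 0 and 0.111 CPM against 13.3 to 28.6 CPM at 21% O2, a difference of 7.41 ± 1.29 (SE, n = 4 per group, edgeR adjusted p = 0.0832). Both fitted values depend on the prior count, the calls were lost in 10 and 13 of 16 cases when a single library was left out, and cyp-31A5 has near-identical relatives.

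The comparison differed much more from that of day 1 adults at 7% O2. On the 16 libraries at this O2 level 11515 genes were tested for a difference between the ages, and 3331 were called (28.9%), of which 1477 (12.8%) had a higher and 1854 (16.1%) a lower log2 fold change on day 7. The median difference over all genes was -0.16, and it moved to 0.11 when the genes inside ribosomal RNA genes were left out. Day 1 animals were collected on the mex-3 bacteria and day 7 animals after their return to OP50, so that age, food and the course of RNA interference cannot be told apart.

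Genes of O2-sensing neurons stood less far above whole worms on day 7. Of 7 tested soluble guanylate cyclases 6 had a smaller log2 fold change on day 7, and none had a larger one. In day 1 neurons gcy-37 had 855, 1638, 1618 and 2158 CPM against 2.37 to 4.85 CPM in whole worms, a log2 fold change of 8.88, and the difference of day 7 from day 1 was -3.72 ± 0.46 (SE, n = 4 per group, edgeR adjusted p = 2e-05). For gcy-36 day 1 neurons had 358, 779, 1117 and 1078 CPM against 0.594 to 1.16 CPM, and the difference was -6.65 ± 0.63 (SE, n = 4 per group, edgeR adjusted p = 1.25e-06). The differences for gcy-35, gcy-32 and gcy-33 were -5.84, -5.33 and -4.50. In these genes the day 7 neuron libraries all lay below the day 1 neuron libraries, while gcy-37 in whole worms lay at 6.53 to 15.6 CPM on day 7 against 2.37 to 4.85 CPM on day 1. CPM values were scaled separately for each age, so levels of different ages share no common scale.

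Several other neuronal lists held many genes with a smaller log2 fold change on day 7. Of 11 touch markers 10 had a smaller log2 fold change on day 7, of 23 pan-neuronal genes 20, of 17 dense-core vesicle genes 16 and of 32 cilia genes 23, with none larger in these 4 lists. Not every list did so. Of 41 Ca2+ signalling genes 21 had a smaller and 6 a larger log2 fold change, of 56 chemoreceptor genes 7 and 5, and of 16 receptor guanylate cyclases 3 and 1, the last list with a median difference of 0.56. Over all genes tested 16.1% had a smaller and 12.8% a larger one. The chemoreceptor and receptor cyclase counts lay near or under these shares. The chaperone gene sbt-1 had 1627, 1832, 1437 and 2087 CPM in day 1 neurons and 142 to 255 CPM in day 7 neurons, and its difference was -4.17 ± 0.33 (SE, n = 4 per group, edgeR adjusted p = 7.68e-07). For daf-7 and mec-7 the differences were -4.96 and -3.67, and for camt-1, coding for a calmodulin-binding transcription activator, and miz-1 they were -3.41 and -3.64. Members that were not called included mec-3, with a difference of 0.54 (edgeR adjusted p = 0.691), and the insulin-like gene ins-24, with one of -1.11 (edgeR adjusted p = 0.334), although 10 of 14 tested insulin-like genes had a smaller log2 fold change on day 7.

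Genes of the precuticle, ribosomal protein and V-ATPase lists had mostly larger log2 fold changes on day 7. In day 1 adults fln-2 was at 123 to 154 CPM in neurons and 174 to 288 CPM in whole worms, with every neuron library below every whole-worm library, and the difference was 4.90 ± 0.30 (SE, n = 4 per group, edgeR adjusted p = 1.9e-08). The median log2 fold change of the precuticle list was -1.32 on day 1 and 3.73 on day 7, over 16 and 18 tested members. The difference itself was tested in 20 members, with a median of 4.755. Of these, 15 had a larger log2 fold change on day 7 against 1 with a smaller one. Other epidermal lists held fewer such genes, with 6 larger and 1 smaller of 14 on the adult epidermis list, 6 and 5 of 44 collagens and none called of 12 antimicrobial peptide genes. Over all genes tested 12.8% had a larger and 16.1% a smaller log2 fold change. For noah-1 day 1 neurons had 25.4, 15.7, 4.14 and 6.26 CPM against 54.5 to 323 CPM, and the difference was 7.05 ± 0.87 (SE, n = 4 per group, edgeR adjusted p = 1.89e-05). The differences for mlt-8 and ajm-1 were 7.97 and 4.51, and that for pdi-2, a protein disulfide isomerase gene of the secretory pathway that also serves collagen folding, was 3.01.

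Of the ribosomal protein genes 71 had a larger log2 fold change on day 7 and none a smaller one, with list medians of -0.31 on day 1 and 1.62 on day 7. For rpl-3 day 1 neurons had 932, 1457, 1159 and 1500 CPM against 1372 to 2302 CPM, and the difference was 2.18 ± 0.26 (SE, n = 4 per group, edgeR adjusted p = 1.37e-05). Of the V-ATPase genes 13 had a larger and 1 a smaller log2 fold change on day 7. Among the lower genes, cpg-1 was further below whole worms on day 7 (difference -1.60), and 11 oocyte genes in all had a smaller log2 fold change, whereas the 6 vitellogenin genes had a larger one, with vit-2 at 1.45 (edgeR adjusted p = 0.0871), a call that was lost in 12 of 16 cases when a single library was left out.

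**Figure D5:**
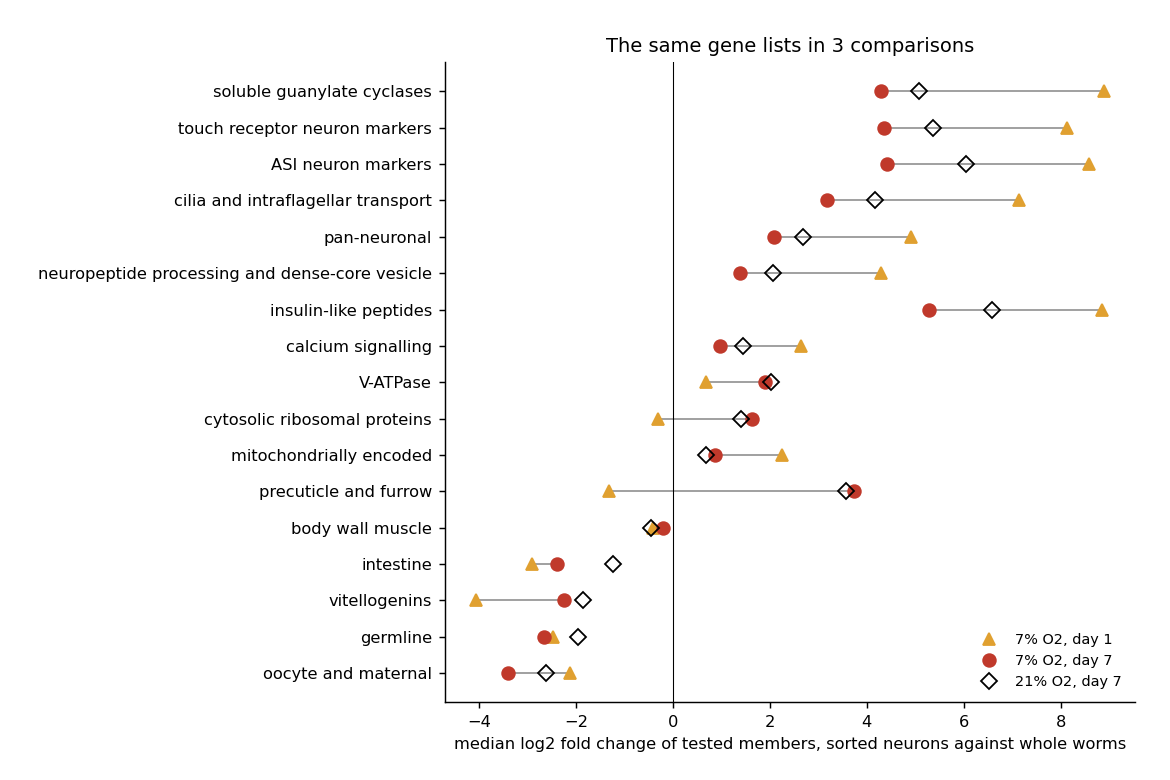
Median log2 fold change of sorted neurons over whole worms in each gene list, for day 1 and day 7 adults at 7% O2 and for day 7 adults at 21% O2. Soluble guanylate cyclases are at 8.88 on day 1 and 4.28 on day 7 and precuticle genes at -1.32 and 3.73, while the day 7 points of these lists at 21% O2 are at 5.08 and 3.58. Each median is over the members tested in that comparison, so the genes differ, with 7 cyclases on day 1 against 5 on day 7 at 7% O2.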

How the data were processed

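Of the 32 RNA-seq libraries, the 8 of day 7 adults at 7% O2 were compared, 4 of sorted neurons and 4 of whole worms. RNA of these pooled cells was extracted with PicoPure columns, amplified with the Ovation V2 kit and made into TruSeq Nano libraries. The deposited table holds raw fragment counts per gene. The authors had trimmed the reads with Cutadapt 1.9, aligned them to WBcel235 with STAR 2.5.2b, removed annotated ribosomal RNA genes and run featureCounts 1.5.1 on exons in unstranded mode. Overlapping or antisense genes cannot be told apart in such counts.

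Counts were tested in R 4.3.3 with edgeR 4.0.16 (filterByExpr with a minimum count of 10, TMM scaling, two-sided quasi-likelihood F test with robust dispersion). Calls needed 1.5-fold or more and a Benjamini-Hochberg adjusted p below 0.1. Dividing a log2 fold change by the root of its F statistic gave the standard error. Differences from 21% O2 and from day 1 were tested as differences between log2 fold changes on 16 libraries each. The CPM values printed were scaled within each comparison of neurons and whole worms, and not across ages or O2 levels. The tests were checked on simulated data, where the 2 difference tests recovered few of the genes changed by known folds and the main test a part of them. The floor of 3 counts per library covers counting error only. Whether replicates came from separate cultures is stated no further than as biological replicates.

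Gene lists and members were chosen with earlier results of these data known, and the name patterns of 2 families were corrected after the files had been read. Named genes are all members of the cyclase, published and touch lists. In every other list they are the 3 with the highest mean CPM and the called gene with the smallest p in each direction. Over all genes they are those with the smallest p among called genes whose groups did not overlap. Per difference they are the called genes with the smallest p. The genes tax-2, tax-4, hif-1, ahr-1, elt-3 and unc-54 were added after their values had been seen. Alternatives were DESeq2 1.42.0, its size factors within edgeR, no filter, a filter at 1 CPM in each library of either group, an adjusted p below 0.05, calls without a fold threshold, all 32 libraries, the replicate number as a block, leaving out genes inside ribosomal RNA genes, and leaving out each library.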

Additional observations from a re-analysis of the deposited data

Results flagged for a closer look

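A single library stood far from the other 3 of its group in 30 of 288 groups of values examined. The rule flags about 1 group in 20 if values are normally distributed, which CPM values need not be. The 30 flagged are a larger share than 1 in 20. The rate for CPM values is not known, so an excess over chance was not tested. In 25 of the 30 the value was the highest of its group. Of the 30, 9 were in neuron library 1, and most of those were touch neuron genes, at 795.3 CPM for mec-1, 85.35 CPM for mec-3, 274.1 CPM for mec-7, 254.4 CPM for mec-12, 274.6 CPM for mec-17 and 115.5 CPM for mec-18, each the highest of 4. In whole worms the highest values of mec-1 and mec-17 were 25.06 and 11.18 CPM, both in library 2. The other values of neuron library 1 that stood apart were 6.471 CPM for aman-1 and 8.256 CPM for inx-22, both the highest, and 2435 CPM for vit-5, the lowest. In neuron library 2 these were hex-4 at 40.07 CPM, mup-4 at 864.5 CPM, ptr-4 at 469.5 CPM and ctc-1 at 21640 CPM. In neuron library 3 they were Y102A11A.9 at 77.89 CPM, flp-1 at 1.52 CPM and myo-2 at 42.49 CPM, and in neuron library 4 avr-15 at 1.991 CPM.

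In whole worms the single high values were 410 CPM for egl-4 and 1633 CPM for cpg-2 in library 1, 1.274 CPM for gcy-33 in library 2, 62.82 CPM for unc-33 in library 3, and 3.131 CPM for ncx-5, 5.037 CPM for glb-3 and 1.089 CPM for glb-2 in library 4. The single low values were 72.9 CPM for col-181 and 46.43 CPM for inx-22 in library 2, and 0.6807 CPM for col-121 and 82.63 CPM for myo-2 in library 4.

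The log2 fold change of neurons over whole worms differed between day 7 and day 1 by a test of the difference itself in the 20 genes given here, which are not all of the 3331 genes called. It was smaller on day 7 by -3.715 for gcy-37, -5.325 for gcy-32, -6.651 for gcy-36, -5.842 for gcy-35, -4.497 for gcy-33, -3.671 for mec-7, -4.955 for daf-7, -3.765 for egl-3, -4.17 for sbt-1, -3.41 for camt-1, -3.638 for miz-1 and -1.598 for cpg-1. It was larger by 4.51 for ajm-1, 7.045 for noah-1, 7.969 for mlt-8, 4.898 for fln-2, 3.012 for pdi-2, 2.179 for rpl-3, 1.115 for vha-16 and 1.452 for vit-2. Between 7% and 21% O2 it differed by -6.592 for C53B7.3 and by 7.405 for cyp-31A5.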

How the results depend on the processing

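The comparison called 4414 genes, and between 3684 (adjusted p under 0.05) and 5125 (no filter on low counts) under the other settings, 3694 to 4786 without a single library. Without genes inside ribosomal RNA genes the split of the age difference moved from 44.3% to 53.1% with a larger log2 fold change on day 7. The 3331 genes called in that difference became 2505 to 4000, and 2921 to 4179 without a single library. The 2 genes called in the O2 difference became 63 with DESeq2 (30.2% higher), 112 without a filter (32.1% higher), 5 with all 32 libraries, 0 at an adjusted p under 0.05 and 0 with the replicate block, and 0 to 4 without a single library. The cause was not tested. Each whole-worm aliquot came from a suspension that was then sorted, but no source used here ties the replicate numbers to suspensions, and same-numbered samples did not deviate together (correlations of deviations -0.009 to 0.073), and as a block they gave 4354 calls, 47.7% of them higher against 53.9% without it, and a median of -0.26 over all genes in place of 0.04.

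Of 132 named genes called, 125 kept their call and direction under every alternative. The others were gcy-9, cat-1, dyf-7, miz-1, unc-54, nlp-31 (with all 32 libraries, 1.39) and myo-2 (no adjusted p in DESeq2). The paramyosin gene unc-15 passed with DESeq2 (-0.62), tax-4 with the replicate block (3.89) and ncx-5 with all 32 libraries (2.33), and the age difference of vha-16 was lost without day 1 whole-worm library 1 (0.95) and that of ins-24 gained without day 1 neuron library 1 (-1.47). The uncalled gene Y51H4A.24 changed sign, from -0.54 to 0.24 without a single library. A level below 3 counts is not detectable at these depths, and uneven counts among the neuron libraries limit all low genes.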

Other observations

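Several families outside the lists above held members far apart in both directions. Over all genes tested 24.7% were higher and 21.1% were lower, and no family share was tested against these. Of 19 tested innexins, the subunits of gap junctions, 6 were higher and 4 were lower. The innexin gene inx-13 had 195, 288, 206 and 186 CPM in neurons and 19.8 to 35.4 CPM in whole worms (log2 fold change 2.95), while inx-22, known from oocytes, had 8.26, 1.71, 1.16 and 1.17 CPM against 46.4 to 62.8 CPM (log2 fold change -4.26). Of 32 tested transthyretin-related genes 7 were higher and 9 were lower, with the smallest p for ttr-59, at a log2 fold change of 3.36, and ttr-51, at -1.78. Of 44 tested cytochrome P450 genes 11 were higher and 7 were lower, with cyp-33C8 at 1.89. Of 31 tested hedgehog- and patched-related genes 8 were higher and 4 were lower, ptr-2 at -3.18 having the smallest p of the latter.

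Some genes of receptor and channel families reached high counts in the sorted sample, in lists where most tested members were not called. The chemoreceptor-like gene srr-4 had 268, 412, 353 and 280 CPM in neurons and 10.6 to 31.8 CPM in whole worms, a log2 fold change of 3.82, and sro-1 had 64.8, 77.8, 14.5 and 38.8 CPM against 0.199 to 2.55 CPM. Neither group overlapped the other in these genes. The potassium channel gene kvs-4 had 69.5, 38.7, 26.3 and 12.2 CPM against 0 to 2.98 CPM, and the ligand-gated channel gene lgc-47 had a log2 fold change of 3.51. Of 29 tested ligand-gated channel genes 2 were higher and 4 were lower, beside 24.7% and 21.1% of all genes. The glutamate-gated chloride channel gene avr-15, used in pharyngeal muscle, was lower with 0.112, 0.0925, 0 and 1.99 CPM against 15.1 to 23.1 CPM. Of 11 tested epidermal antimicrobial peptide genes 2 were higher and 1 was lower, among them nlp-31 at 1.37 and cnc-6 at -4.97, and of 35 major sperm protein genes none had enough counts to be tested, with a summed level of at most 1.41 CPM in neurons and 4.22 CPM in whole worms.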
